A study of Homo sapiens with 2 samples.

Results

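The probe sets described here are those of a human exon array to which the platform annotation supplied with the data gave no gene symbol. All 1570 such probe sets were taken, of 45200 in the deposited table, or 3.47%. A further 42575 probe sets carried exactly 1 symbol and are called named below, and 1055 carried several. The arrays were hybridised with RNA of HepG2, a human hepatoma cell line grown on collagen, 1 array per condition. Cells of the knockdown had received an LNA to TUC338, that is, a short oligonucleotide with locked nucleic acid bases. TUC338 is a long noncoding RNA that includes an ultraconserved stretch. The other cells had received a control LNA. Both conditions thus shared the cell line, the transfection and the labelling. The submitters report an experimental check of the knockdown, for which no probe set here gives a value. Every difference below compares 2 arrays, without replicates, and is described without a test.

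A probe set on an exon array is a small group of short probes that together read roughly 1 exon, so a gene is read several times along its length. Neighbouring probe sets carry neighbouring ID numbers, because the numbers follow the order of the probes along each chromosome. A probe set without a symbol here is unnamed in the annotation used, which is not the same as lying outside genes. No name was given to any of them below, and a gene standing next to one in ID order is a landmark only. No probe or target sequence of these probe sets was used here, so none is printed.

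The identity of the cells was checked on named genes. Of 15 hepatocyte and hepatoma markers, 6 were in the table (ALB, APOA2, APOB, FGG, GPC3 and TF), at mean log2 levels from 10.25 to 12.99, all above the middle of all probe sets at 8.85. Of 9 markers of other cells, 3 were in the table. The fibroblast markers COL1A1 and PDGFRB lay at 8.20 and 7.91, and the smooth muscle actin ACTA2 at 10.04. Log2 levels of different genes depend on their probes and are given here as a description only. TUC338 lies within PCBP2, which encodes an RNA-binding protein, and none of the unnamed probe sets had an ID among those of the 13 PCBP2 probe sets or within 100 of them.

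Unnamed probe sets were brighter than named ones. Their log2 level on the knockdown array ran from 5.72 to 13.80 with a median of 9.28, and on the control array from 6.08 to 13.62 with a median of 9.02. Named probe sets had medians of 8.98 and 8.71. Of the unnamed probe sets 909, or 57.9% (exact 95% binomial interval 55.4 to 60.4, counting error only), lay above the median level of the named ones. The excess stood at the bright end. When all probe sets were divided by mean level into 10 bins of equal size, 303 unnamed probe sets, or 19.3%, fell in the brightest bin, against 9.44% of the named ones. At the dim end the shares were alike, with 164 unnamed probe sets, or 10.4% (8.98 to 12.1), and 4258 of the 42575 named ones in the dimmest bin. Members of the same locus are not independent, so this interval is too narrow for the number of loci.

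**Figure D1:**
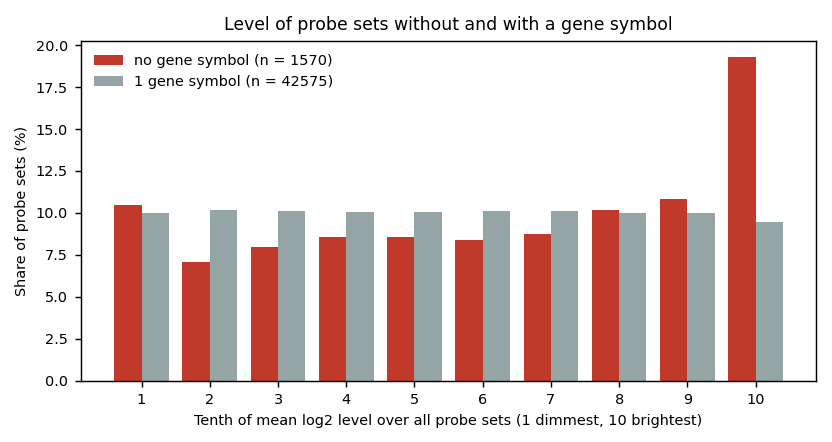
Share of probe sets (%) in each of 10 bins of mean log2 level, from the dimmest to the brightest, for probe sets without a gene symbol (red) and with 1 symbol (grey). The brightest bin holds 19.3% of the unnamed and 9.44% of the named probe sets.

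The brightest unnamed probe sets were spread unevenly over many stretches of IDs. The highest, with ID 2891067, lay between MGAT1, a glycosyltransferase of N-glycan processing, and the forkhead factor FOXQ1, and read 13.80 in the knockdown and 13.62 in the control. Of the 10 brightest, 3 lay between CD24 and ATP8 and 3 beside or within stretches of probe sets listed to the translation elongation factor EEF1A1. The 303 probe sets of the brightest bin came from 58 stretches of IDs, and the 5 fullest of these gave 121. A stretch between ITIH3 and ABHD6 gave 38 of them, 1 between HIPK1 and TTF2 gave 25, 1 between STXBP6 and EGLN3 gave 22 and 1 between DENND2C and GDAP2 gave 20.

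Knockdown and control were compared next, first over all members. Of the unnamed probe sets, 71.9% had a higher value in the knockdown, and of the named ones 75.3% once weighted to the same levels. The median difference, knockdown minus control, was 0.21 in deposited log2 values for the unnamed and 0.25 for the named probe sets at matched levels. Because the offset between the arrays also shrank with level, from 0.31 in the dimmest to 0.21 in the brightest bin of named probe sets, each difference below is taken relative to the median of the named probe sets in the same level bin. It is called the level-matched difference. Over all unnamed probe sets it had a median of -0.05 and quartiles of -0.28 and 0.20, against quartiles of -0.25 and 0.24 for the named ones at matched levels. The SDs over probe sets were 0.41 and 0.39. As a whole, the unnamed probe sets therefore differed little between the arrays beyond the shift that named ones showed.

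Large differences were then counted among probe sets with a mean level at or above 8.85, the median of all probe sets. Of the 902 unnamed probe sets there, 25 were at least 2-fold lower on the knockdown array, or 2.77%, against 1.05% of all 22600 probe sets above that level. Only 2 were at least 2-fold higher, or 0.222%, against 0.597% of all. In deposited values the counts were 19 lower and 18 higher, against 0.319% and 2.33% of all probe sets. The lower ones were not spread over the table. Of the 25, 22 lay in a single stretch of IDs between SBNO1 and SLC15A4, 2 lay between COPB2 and TFDP2 and 1 between MECR and COL16A1. The last of these, ID 2404318, read 8.62 in the knockdown and 9.64 in the control. Without the SBNO1 stretch, 3 of 879 probe sets, or 0.341%, were at least 2-fold lower. Both higher ones lay between POLA1 and TSPAN7.

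The members were grouped into likely loci for this reason. Unnamed probe sets that followed each other with no named probe set between them and with ID numbers at most 20 apart were taken as a run. The assumption was checked on named probe sets: of 39572 neighbouring pairs within that distance, 99.5% carried the same symbol. Neighbours of different symbols lay on the same chromosome in 98.1% of 2558 pairs, by the RefSeq gene table of GRCh38.p14. The 1570 members formed 176 runs, of which 55 were lone probe sets and 20 were pairs. The other 101 runs held 1475 members, or 93.9%, with a median of 12 and a maximum of 63 per run, and the named genes with at least 3 probe sets also had a median of 12. Of these 101 runs, 86 stood more than 20 IDs from the nearest named probe set on both sides. Most members were thus parts of stretches as long as a named gene, and only 1 run of at least 3 had the same single gene on both sides. A run may still hold probe sets of more than 1 gene.

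Members of a run resembled each other in the difference about as closely as probe sets of a named gene. The SD of the level-matched difference within a run, pooled over the 101 runs, was 0.26, and within the 2759 named genes with at least 3 probe sets it was 0.27. The SD between the medians was 0.30 over runs and 0.31 over genes. Levels varied far more along a run than differences did. Over the 73 runs of at least 8 members, the median SD within a run was 0.89 for the level and 0.24 for the difference. Of those 73 runs, 5 had every member below the named probe sets of matched level and 3 had every member above, together 8 of 73, against 13.5% of 2141 named genes of that size.

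**Figure D2:**
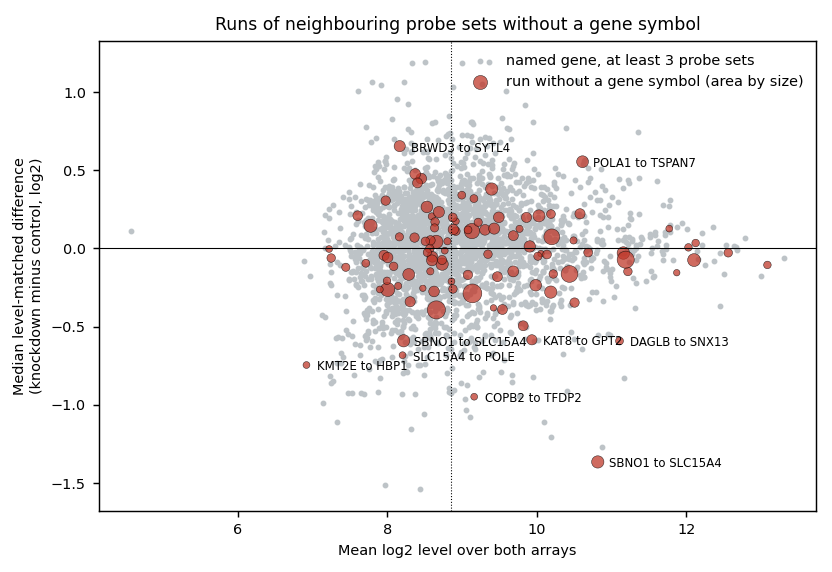
Median level-matched difference (knockdown minus control, log2) against mean log2 level for the 101 runs of at least 3 unnamed probe sets (red, area by number of members) and for 2759 named genes with at least 3 probe sets (grey). The dotted line marks the level of 8.85, and the run between SBNO1 and SLC15A4 lies at -1.36, below every named gene to the right of that line.

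The run with the largest difference lay between SBNO1, a homolog of the fly gene strawberry notch, and SLC15A4, a lysosomal peptide and histidine transporter. It held 24 probe sets, with IDs from 3476742 to 3476777. Their log2 levels ran from 8.23 to 11.59 with a median of 10.45 in the knockdown, and from 9.17 to 12.46 with a median of 11.68 in the control. The ranges overlapped because the probe sets differ in brightness, but each of the 24 was lower on the knockdown array than on the control array. The deposited difference had a median of -1.16, and the level-matched difference one of -1.36 ± 0.23 (SD over probe sets, here and below), or 2.58-fold lower, from -1.87 to -0.88. The probe set with the largest difference, ID 3476757, read 10.18 in the knockdown and 11.84 in the control, and the 10 largest decreases among the 902 unnamed probe sets with a mean level of at least 8.85 were in this run.

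This difference was even along the run. The first and the second part of the run in ID order had medians of -1.36 and -1.36, and its dimmer and brighter members had medians of -1.49 and -1.33. No gene among the 1328 named genes with at least 3 probe sets and a mean level of 8.85 or more had a median as low. The lowest of them was TUBA1A, an alpha tubulin with near-identical paralogs, at -1.27 over 5 probe sets. At any level, 2 of 2759 named genes were as low. The named neighbours did not share the size of the difference: the mean was -0.47 ± 0.28 for SBNO1 (27 probe sets) and -0.05 ± 0.24 for SLC15A4 (10).

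A second run, with IDs from 3476468, lay between the same landmarks, nearer to SBNO1. Its 24 members ran from 7.45 to 9.08 in the knockdown with a median of 7.96, and from 7.18 to 9.50 in the control with a median of 8.28. It was dimmer than the level of 8.85, and 20 of its 24 members were lower in deposited values. Its level-matched difference was -0.59 ± 0.31, with 23 of 24 members below the named probe sets. A run of 4 stood on the other side of SLC15A4, 8 IDs from it and before the DNA polymerase gene POLE. It read from 5.72 to 10.31 in the knockdown and from 6.08 to 10.87 in the control. Its difference was -0.68 ± 0.26, with 4 of 4 below the named probe sets and 3 of 4 lower in deposited values, while POLE itself averaged -0.26 ± 0.27 over 43 probe sets. Runs that read lower in the knockdown thus stood on both sides of SLC15A4, whose own mean lay near that of the named probe sets. Of neighbouring named pairs 6 to 20 IDs apart, 95.3% carried the same symbol. The run of 4 may therefore not be separate from SLC15A4.

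**Figure D3:**
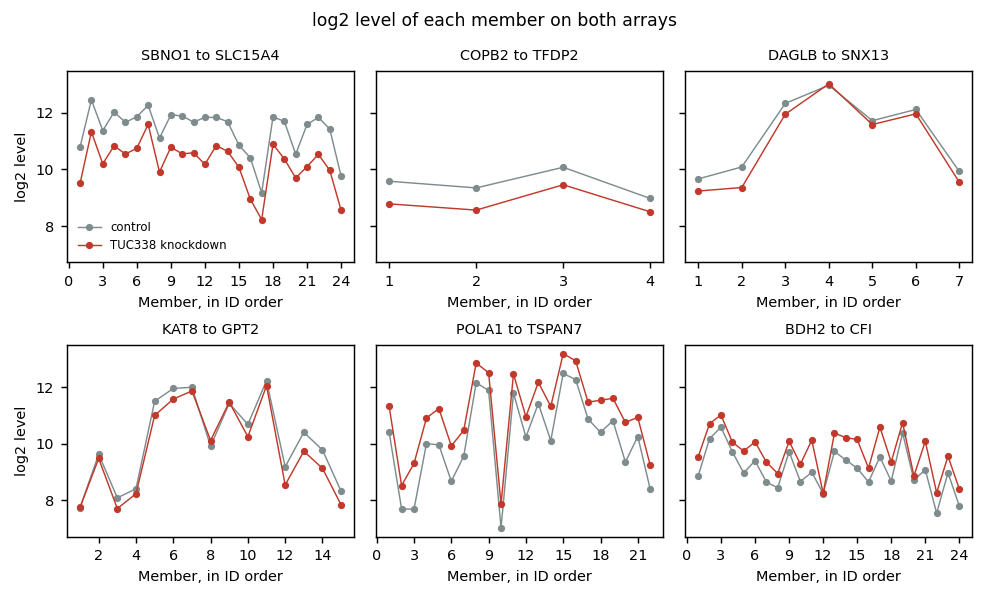
Log2 level of each member, in ID order, on the knockdown array (red) and the control array (grey) for the 4 runs with the lowest and the 2 with the highest median level-matched difference at a mean level of at least 8.85. In the SBNO1 to SLC15A4 panel the knockdown line lies below the control line at all 24 members, and in the POLA1 to TSPAN7 panel it is the higher line at all 22.

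Of the 56 runs of at least 3 members with a mean level of 8.85 or more, 3 had a median at least 1.5-fold lower, or 5.36%, against 3.11% of 1384 named genes and runs together. None was at least 1.5-fold higher, against 2.6%. The other 53 lay within 1.5-fold. Besides the SBNO1 run, the lower runs were those between COPB2 and TFDP2 and between DAGLB and SNX13.

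The run between COPB2, a coatomer subunit of vesicle transport, and TFDP2, a dimerisation partner of E2F factors, had 4 members. They read 8.78, 8.56, 9.46 and 8.50 in the knockdown and 9.58, 9.35, 10.08 and 8.97 in the control, so each was lower on the knockdown array. The difference was -0.95 ± 0.15, or 1.93-fold lower, and 6 of the 1328 named genes had a median as low. COPB2 itself, 34 IDs away, averaged -0.16 over 16 probe sets.

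The run between DAGLB, a diacylglycerol lipase, and SNX13, a sorting nexin, had 7 members. They ran from 9.24 to 13.02 with a median of 11.58 in the knockdown and from 9.67 to 12.97 with a median of 11.72 in the control. In deposited values 6 of the 7 were lower, the brightest being the exception. The level-matched difference was -0.59 ± 0.26, or 1.51-fold lower, with 7 of 7 below. DAGLB, 10 IDs away, averaged -0.24 over 14 probe sets, and 37 named genes had a median as low as the run. Because 95.3% of neighbouring named pairs 6 to 20 IDs apart carried the same symbol, this run may not be separate from DAGLB.

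Just short of 1.5-fold stood the run of 15 between KAT8, a histone acetyltransferase, and GPT2, a mitochondrial alanine aminotransferase. Its members ran from 7.71 to 12.05 in the knockdown and from 7.74 to 12.22 in the control, with medians of 9.73 and 9.91. The difference was -0.58 ± 0.28, with 15 of 15 below the named probe sets and 12 of 15 lower in deposited values. The run of 14 between IRAK1, a kinase of interleukin-1 and Toll-like receptor signalling, and the membrane scaffold gene MPP1 had medians of 9.63 and 9.98. Its difference was -0.49 ± 0.13, with 14 of 14 below, and this SD was the smallest of the 73 runs of at least 8.

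Further lower runs had smaller differences, which were smaller still in deposited values. The run of 14 between SIPA1L1 and ACOT2 was at -0.39 ± 0.18 with 13 of 14 below, and at -0.14 in deposited values with 12 lower. The run of 12 between HIF3A and ARHGAP35 was at -0.35 ± 0.19 with 12 of 12 below, and at -0.12 in deposited values with 11 lower. The run of 24 between MECR and COL16A1 was at -0.28 ± 0.25 with 22 of 24 below, but at -0.026 in deposited values with 16 lower. The longest run of all, 63 probe sets between YWHAZ and SLC25A32, had 55 members below and a median of -0.29 ± 0.23. Its members ran from 6.63 to 10.93 in the knockdown and from 6.68 to 11.05 in the control, and in deposited values the median was -0.050 with 40 of the 63 lower. The last of the 10 lowest with a mean level of at least 8.85 was a run of 3 next to GGT1, a gamma-glutamyltransferase with close paralogs, at -0.38 ± 0.32.

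**Figure D4:**
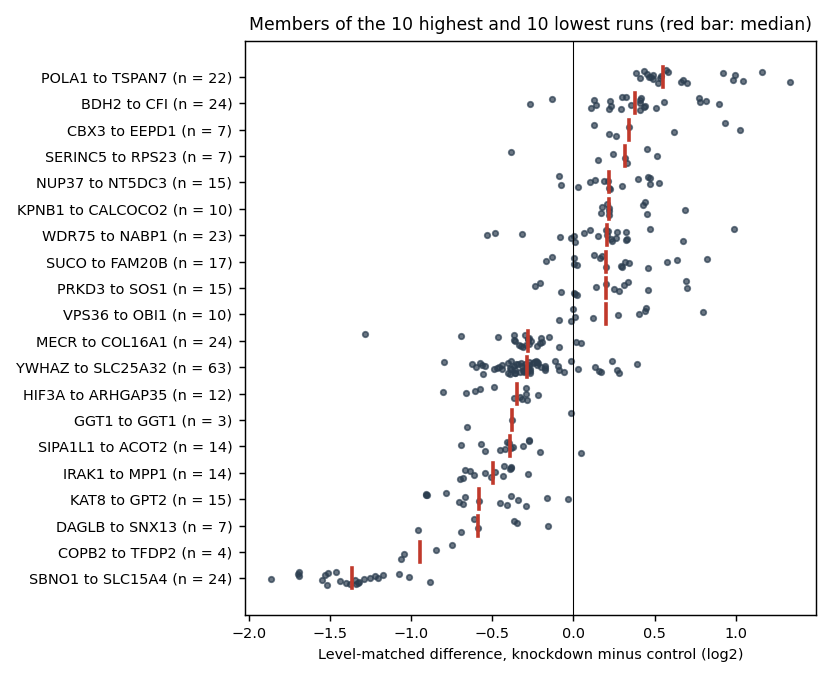
Level-matched difference (log2) of every member of the 10 runs with the highest and the 10 with the lowest median at a mean level of at least 8.85, each point a probe set and each red bar the median. All 24 points of the SBNO1 to SLC15A4 run lie between -1.87 and -0.88, and all 22 of the POLA1 to TSPAN7 run between 0.38 and 1.34.

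Among the 56 runs with a mean level of at least 8.85, the highest median was that of a run between POLA1, the catalytic subunit of DNA polymerase alpha, and TSPAN7, a tetraspanin. Its 22 members ran from 7.87 to 13.18 with a median of 11.28 in the knockdown, and from 7.03 to 12.48 with a median of 10.25 in the control. Each of the 22 was higher on the knockdown array. The deposited difference had a median of 0.83 and the level-matched difference one of 0.55 ± 0.27, or 1.47-fold higher, and 45 of the 1328 named genes had a median as high. Of the 10 largest increases among the unnamed probe sets with a mean level of at least 8.85, 5 were in this run, led by ID 3972991 with 10.75 in the knockdown and 9.36 in the control. The dimmer members had a median of 0.67 and the brighter ones 0.49. The mean was -0.13 for POLA1 (37 probe sets) and 0.16 for TSPAN7 (7).

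The run of 24 between BDH2, a hydroxybutyrate dehydrogenase, and CFI, the complement factor I protease, was the second highest of these 56. It had medians of 9.90 in the knockdown and 8.98 in the control and a difference of 0.38 ± 0.28. In deposited values each of the 24 was higher, and 22 of 24 lay above the named probe sets of matched level. The run of 7 between CBX3 and EEPD1 was at 0.34 ± 0.36 with 7 of 7 above, and the run of 7 between SERINC5 and RPS23 at 0.32 ± 0.30 with 6 of 7 above. The run of 10 between KPNB1, an importin, and CALCOCO2, an autophagy receptor, was at 0.22 ± 0.17 with 10 of 10 above. The other 5 of the 10 highest at that level had medians from 0.20 to 0.22. They lay between NUP37 and NT5DC3, WDR75 and NABP1, SUCO and FAM20B, PRKD3 and SOS1, and VPS36 and OBI1.

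Most runs with a mean level above 11 differed little between the arrays. Of the 11 such runs of at least 3, 10 had medians between -0.15 and 0.13, and the remaining one was the DAGLB run. This bound leaves out the SBNO1 to SLC15A4 run, with a mean level of 10.8 and 16 members in the brightest bin. It also leaves out the POLA1 to TSPAN7 run, with 11 members in that bin. The 9 probe sets between MGAT1 and FOXQ1 had medians of 13.04 in the knockdown and 12.81 in the control and a level-matched difference of -0.03 ± 0.18. The 27 between HIPK1, a protein kinase, and TTF2 had medians of 12.45 and 12.30 and a difference of -0.07 ± 0.19. The 51 between ITIH3 and ABHD6, the run that gave most to the brightest bin, had medians of 11.51 and 11.37 and a difference of -0.07 ± 0.23. The brightest run of at least 3 members, 6 probe sets between CD24 and ATP8, ran from 12.32 to 13.59 in the knockdown and from 12.23 to 13.58 in the control, at -0.11 ± 0.25. Over all 73 runs of at least 8 members, 24 had a median within 0.1 of zero, 40 lay below it and 33 above.

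The runs showed little correlation with their nearest named genes, which were taken at any ID distance and averaged over both sides. Many were far off: the run between RB1 and GPC6 stood 395 and 7123 IDs from them. For 92 runs of at least 3 both neighbouring genes had at least 3 probe sets, and the mean of the run correlated with that of its neighbours with a Pearson r of 0.09 and a Spearman rho of 0.07. Run and neighbours lay on the same side of zero in 41 of the 92. This is a correlation across loci of the same pair of arrays and is a description only. Of all 176 runs, lone probe sets included, 8 stood next to a ribosomal protein gene, 8 next to a solute carrier and 4 next to a zinc finger gene. Next to here means the nearest named gene on either side, at any ID distance. These classes held 0.46%, 1.5% and 1.22% of the named probe sets. Those are shares of probe sets and not of loci, so the counts of runs cannot be read as an excess or a lack. No run stood next to a histone or small RNA gene, but this says little. The named probe sets included 0 of histone genes and only 5 of small RNA genes.

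Lone probe sets and pairs, 95 members in all, were dimmer and more scattered. Their median level was 8.65, against 9.17 for members of longer runs, and the level-matched difference had a median of -0.14 and an SD of 0.51, against -0.05 and 0.40. A group of 45 unnamed probe sets, which includes the run of 3 within RNF7, stood within 20 IDs of named probe sets of the same gene on both sides. They fell in 25 genes. Their difference departed from the mean of that gene by a median of 0.23 in size, against 0.18 for 42530 named probe sets set against the rest of their own gene. Their level departed by 0.92 and 0.60. Of the 45, 2 (4.44%) departed by at least 2-fold in the difference, against 0.266% of the named ones. The named ones were not matched to the 45 for level or gene, and 10 of the 45 lay in SNRNP200. Of the 2, that in ZNF638 had a mean level of 8.34, below 8.85.

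SNRNP200, a helicase of the spliceosome, held the most, with 10 unnamed probe sets among its 37 named ones. These 10 had a mean level-matched difference of -0.27, from -0.67 to 0.59, beside -0.35 ± 0.19 for the gene, and 9 of the 10 were below zero. The exception, ID 2565301, was dim and read 8.95 in the knockdown and 8.08 in the control. Both probe sets inside the prohibitin gene PHB1 were at -0.40 and -0.15 beside a gene mean of -0.29. The probe set inside LRP1, an endocytic receptor, was at -0.89 beside -0.57 over 98 probe sets, and that in SQLE, an enzyme of cholesterol synthesis, at -0.83 beside -0.30 over 12. Apart from ID 2565301, the unnamed probe sets in these genes had the sign of the gene.

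Others departed from the gene around them. The probe set inside RAB3IP, a Rab exchange factor, read 9.86 in the knockdown against 10.10 in the control, a level-matched difference of -0.47 beside 0.65 for the 15 named probe sets of the gene. That inside the zinc finger gene ZNF638 read 7.92 and 8.76, a difference of -1.12 beside -0.03 over 35. The probe set in TBC1D2 was at -1.07 beside -0.26, and that in SCMH1 at -0.78 beside 0.0019. Inside the ribosomal protein genes RPL4, RPL5 and RPS24, which have many near-identical copies, 7 unnamed probe sets had differences from -0.15 to 0.59. Those 2 in RPL5 were dim, at a mean level of 7.51, while the named probe sets of the gene averaged 12.50.

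**Figure D5:**
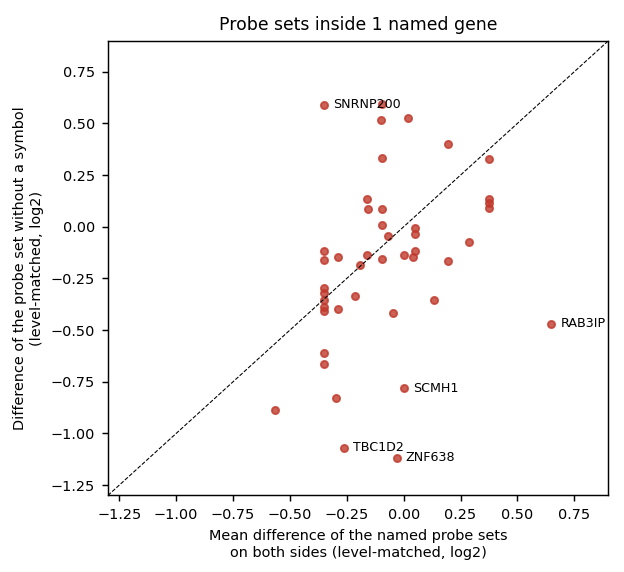
Level-matched difference (log2) of the 45 unnamed probe sets that lie within 1 named gene against the mean of the named probe sets of that gene. The dashed line marks equality, and the labelled points, among them RAB3IP, ZNF638, TBC1D2 and SCMH1, lie at least 0.75 from it.

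The last group lay among immunoglobulin kappa genes, IGKC and IGKV, which encode antibody light chains and have many near-identical members. There were 8 unnamed probe sets within 100 IDs of these genes. They ran from 6.68 to 8.77 with a median of 7.66 in the knockdown and from 6.87 to 9.54 with a median of 8.72 in the control, and 5 of the 8 were lower in deposited values. The largest difference, at ID 2563955, was from 9.54 in the control to 7.64 in the knockdown, or -2.17 relative to named probe sets, the lowest of all 1570. The 9 named probe sets of the same stretch were lower in 9 of 9, with a median level-matched difference of -1.0, beside -0.75 for the unnamed ones. Most of these levels lay below 8.85 on both arrays, where differences have the least signal behind them.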

How the data were processed

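Trizol-extracted RNA was amplified and biotin-labelled with whole-transcript kits, per the labels' protocols. The authors deposited natural log values for 45200 probe sets on 2 arrays; how they were normalized, and on which build, is not stated in the labels or file headers. The scale was settled from the numbers: exponentials of 1154 of 41367 knockdown values under 2000 fell in the fullest 0.001-wide residue bin (period 0.5; mean 82.7 per bin), against 117 at most when read as log2. Values were divided by the natural log of 2. The arrays were compared as labelled, 1 per condition, which limits the precision. No coordinates are printed because the build is unknown. Of 2795 symbols, 331 were updated by RefSeq. The members, lists and rules were chosen with earlier results of these data known. Named items are the 10 brightest members and, at a mean level of at least 8.85, the 10 largest increases and decreases and the 10 highest and lowest runs of at least 3, all runs of at least 8 (as counts), and their neighbours; other runs and probe sets named were chosen after their values were seen. The procedure was tested on simulated data. Alternatives changed the centring, the level minimum, the ID distance, the fold, the named set and the scale. Python 3.11.15, numpy 2.4.6 and pandas 2.3.3 were used.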

Additional observations from a re-analysis of the deposited data

How the results depend on the processing

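No paired analysis was possible because each condition had 1 array. The choice of centring decided the sign of the overall shift: the median difference over the unnamed probe sets was 0.21 in deposited values with no centring. It was -0.0875 with the level minimum at the upper quartile, and -0.05 with the level-matched setting. The count of probe sets at least 2-fold higher, 2 in the main setting, was 18 with no centring, 5 after quantile normalization and 7 with no level minimum. At 1.5-fold the counts were 43 higher and 71 lower, and the share over all probe sets was not counted at that fold. The count at least 2-fold lower was 3 without the SBNO1 to SLC15A4 run, an alternative chosen after seeing the data. Runs at least 1.5-fold higher numbered 3 with no centring, 1 with no level minimum and 1 with an ID distance of 5, and those at least 1.5-fold lower numbered 6 with no level minimum. The share of members on the same side of zero as their run's median, 78.1% in the main setting, was 82.8% with no centring. The members themselves set that median, so this share is raised by construction and does not measure agreement within runs. It was not counted for named genes. The other 56 comparisons with an alternative stayed within the 95% interval of the main value or, for counts, within 1.5-fold of it. This rule is loose for counts: the 25 probe sets at least 2-fold lower became 37 with no level minimum and 19 with no centring. Reading the values as log2 only rescales them, so the share above the named median level could not change. Of the 20 runs with the highest or lowest medians at a mean level of at least 8.85, none changed sign under 7 settings of centring, named set, equal values and ID distance, but with no centring 14 moved outside the 95% order-statistic interval of their median over probe sets. The MECR to COL16A1 run went from -0.28 to -0.026, the YWHAZ to SLC25A32 run from -0.29 to -0.050 and the KPNB1 to CALCOCO2 run from 0.22 to 0.45. The SBNO1 run stayed between -1.42 and -1.16. No alternative replaces a replicate array.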

Other observations

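Runs below the level of 8.85 were left out of the counts of runs, and some of them were as far from zero as those described. Of 45 such runs of at least 3 members, 3 had a median at least 1.5-fold lower and 1 a median at least 1.5-fold higher. The same share was not counted for named genes below that level, so these counts have nothing to be set against. The run of 19 between BRWD3, a bromodomain and WD repeat gene, and SYTL4, a vesicle trafficking gene, had medians of 8.84 in the knockdown and 7.41 in the control. Its level-matched difference was 0.65 ± 0.36, or 1.57-fold higher, with 18 of 19 members above the named probe sets. The run of 17 between FAM107B and PIP4K2A had medians of 8.78 and 8.19 and a difference of 0.48 ± 0.31, with 16 of 17 above. The run of 17 between ZC3HAV1L and EZH2 was at 0.45 ± 0.34 with 14 of 17 above, and that of 14 between HDAC8 and ATRX at 0.42 ± 0.28 with 13 of 14 above. A run of 12 between CD2AP and ZNF451, from ID 2910246, was at 0.31 ± 0.19 with 12 of 12 above. A second run of 12 between the same landmarks, from ID 2910481, was at 0.07 ± 0.35 with 8 of 12 above.

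On the lower side, the run of 58 between CCNB1IP1 and NDRG2, the second longest, had medians of 8.70 in the knockdown and 8.75 in the control. Its level-matched difference was -0.39 ± 0.20 with 54 of 58 below. It stood 16 IDs from CCNB1IP1 and may not be separate from that gene. The run of 15 between MED14, a Mediator subunit, and NDUFB11, a subunit of respiratory complex I, was at -0.34 ± 0.18 with 15 of 15 below. The run of 4 between KMT2E and HBP1 was at -0.75 ± 0.22 with 4 of 4 below, from 6.39 to 7.15 in the knockdown and from 6.85 to 7.63 in the control.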
